A study of Homo sapiens with 132 samples.

Results

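Cetuximab was added together with EGF to MKN1 cells for 24 h, and these cells were compared with cells that received EGF alone. The comparison used the 6 libraries that the labels give as MKN1, 24 h, treated with EGF+Cet or with EGF, out of 132 libraries in the series, and all 19815 genes that passed the filter on low counts. The study exposed 4 lines of gastric cancer cells to the inhibitors trastuzumab and afatinib, alone or combined. Of these lines, only MKN1 and Hs746T were also given EGF and the inhibitor cetuximab, alone or combined. The study sequenced mRNA after 4 h and 24 h in biological triplicates. MKN1 is an established line from a gastric cancer. EGF was given at 5 ng/ml and cetuximab at 1 µg/ml, and each group (untreated, EGF, EGF+Cet, and cetuximab without EGF, here Cet) held 3 libraries. The cells were grown in medium with fetal calf serum, and the medium was changed before treatment.

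Epidermal growth factor (EGF) binds the receptor EGFR, which then signals through the kinase cascade that ends in ERK. ERK activity raises immediate early transcription factors of the EGR, FOS and JUN families, and these raise later genes for adhesion, proteases, secreted ligands and the phosphatases and Sprouty proteins that feed back on the cascade. Cetuximab is an antibody against the extracellular part of EGFR that blocks the binding of ligands. The comparison asks which responses to EGF were smaller when the antibody was present.

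The 6 libraries held 47072039 to 58947017 counts on genes, so that 3 counts, taken as the smallest level a library can show, correspond to 0.0509 to 0.0637 CPM, the count scaled to a common library total by edgeR, a limit that covers counting error only. All levels of single genes are given as CPM after TMM normalization, a scaling by edgeR for library size and composition. Effects are given as log2FC, the log2 of the ratio between 2 groups, with the standard error of the fit. In bulk samples a change in RNA per cell and a change in the share of cells that express a gene cannot be told apart. Of 10 epithelial marker genes, 10 passed the filter, with summed levels of 18836 to 26451 CPM in EGF and 19876 to 21243 in EGF+Cet libraries. Of 9 immune markers, 2 passed the filter and 5 had 0 counts in all 9 libraries of untreated, EGF and EGF+Cet cells. Of 9 fibroblast markers, 8 passed, and their summed level was 90.3 to 180 CPM in untreated, 40.7 to 43.6 in EGF and 46.4 to 48.4 in EGF+Cet libraries. The part of this difference in any result was not tested.

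Among the genes that were lower in EGF+Cet than in EGF cells, several carried in the 250 bases before a transcript start the letters TGANTCA, the motif bound by AP-1, the dimer of FOS and JUN proteins. The sequences below show these letters in capitals within 27 bases of RefSeq sequence (GRCh38.p14), 5′ to 3′ on the strand of the gene, for genes described further on. LAMA3 encodes the alpha chain of laminin-332, SERPINB2 an inhibitor of the plasminogen activator urokinase, PRR9, SPRR1B and SPRR3 are small proline-rich proteins of the cornified envelope, and DCLK1 is a kinase related to doublecortin, for which one of several sites is shown.
LAMA3, chr18:23872885-23872911, plus strand: tggcacaggcTGACTCAtgtgtgaagt
LAMA3, chr18:23872941-23872967, plus strand: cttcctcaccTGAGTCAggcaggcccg
SERPINB2, chr18:63887593-63887619, plus strand: agtaaaatgtTGAATCActcaaaggac
PRR9, chr1:153217437-153217463, plus strand: tcccaagcagTGACTCAaaccatcggc
SPRR1B, chr1:153031052-153031078, plus strand: tcacaaaagtTGAGTCAacaggtgggt
SPRR1B, chr1:153031082-153031108, plus strand: ggaagaggggTGAATCAcatctgacag
SPRR3, chr1:153001569-153001595, plus strand: gggtggacagTGAGTCAggcccaggtg
DCLK1, chr13:36131968-36131994, minus strand: attccaagagTGACTCAtgtcttgggg

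The motif reads the same on both strands apart from its middle base, so each site was counted once. In LAMA3 the sites lay 125 and 69 bases upstream of a start inside the annotated gene, from which a shorter transcript begins. Of 46 protein-coding genes regulated lower, as defined in the next paragraph, 32 had a promoter sequence in the table, and 9 of these held the letters (28.1%). The same held for 0 of 17 of the protein-coding genes regulated higher and for 2200 of 27305 genes of the whole table (8.06%), which also holds genes not tested here. A gene can have several promoter sequences. Counted by sequence, the letters were in 11 of 52 for the lower genes (21.2%) and 0 of 20 for the higher genes. Over the whole table they were in 2308 of 35116 (6.57%). These shares are a description without a test, and letters in a window are not evidence of binding.

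In EGF-treated MKN1 cells, cetuximab moved few genes by a large amount. A gene was called regulated at a Benjamini-Hochberg adjusted p below 0.05 in edgeR's quasi-likelihood test together with an absolute log2FC above 1. By this rule 57 genes were lower (0.288% of the genes tested) and 45 higher (0.227%) in EGF+Cet than in EGF cells. Each of the 102 genes differed in the same direction in all 3 pairs of same-numbered libraries. Without the limit on log2FC, 726 genes were lower (3.66%) and 704 higher (3.55%), and the median log2FC over all genes was 0.00. These counts were 438 lower and 1241 higher with library size alone as the scaling, and 86 lower and 42 higher without the replicate block. Below, "fell" and "rose" refer to an adjusted p below 0.05 between EGF+Cet and EGF. The shares of 3.66% lower and 3.55% higher over all genes are the background for the count of each gene list. A mean log2 CPM above 1 over untreated, EGF and EGF+Cet libraries was found for 22 of the genes regulated lower and 9 of those regulated higher. The remaining 35 and 36 genes lay at or under this level. Among them, PRSS56, RBP3 and KRT1, had 0 counts in all 3 EGF libraries and 1 to 13 counts in the EGF+Cet libraries, so no fold is given.

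With library size alone as the scaling, 44 genes were lower and 62 higher, a share of 58.5% higher against 44.1% with TMM, and the median log2FC shifted by 0.08. When the replicate number was not fitted as a block, 24 genes were lower and 7 higher. Of the 19 genes named by rule below, 8 had an adjusted p above 0.05 in the fit without the block (ESM1, KRT6A, COL6A3, MYBPHL, RARRES1, ZNF467, TNNT3 and ACER2). Leaving out the libraries of replicate 2 lowered the number of higher genes to 17.

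**Figure D1:**
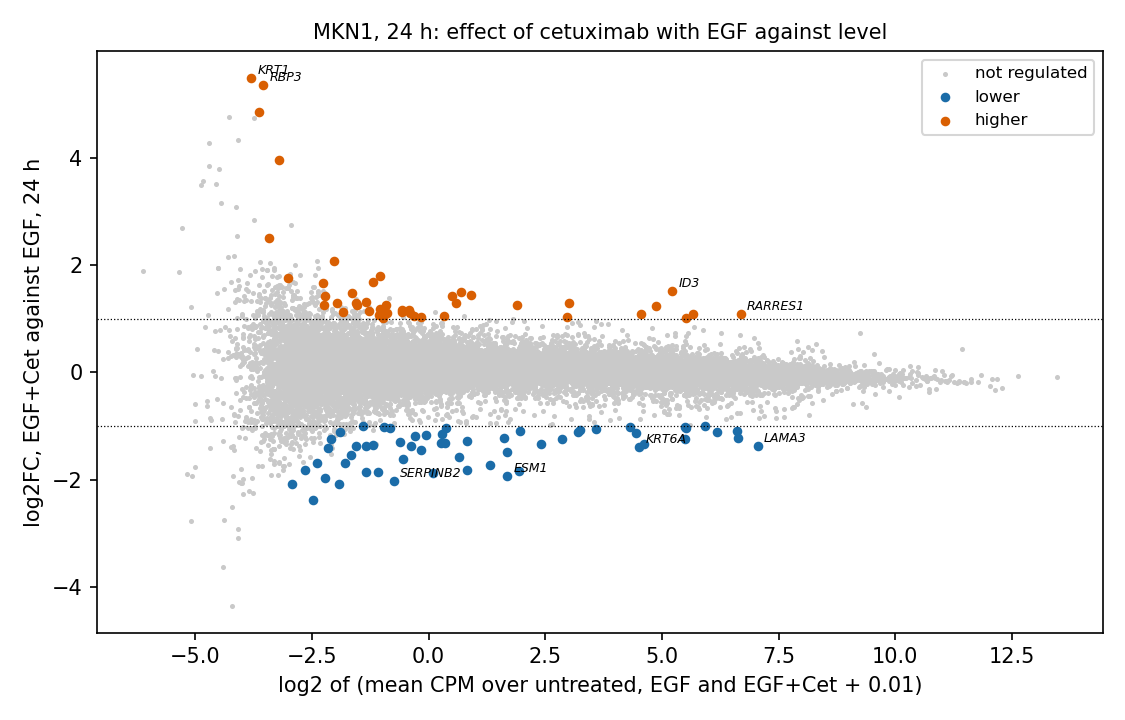
Each point is one of 19815 genes, with its level (log2 of the mean CPM over untreated, EGF and EGF+Cet libraries plus 0.01) on the horizontal axis and the log2FC of EGF+Cet against EGF at 24 h on the vertical axis. Blue points are the 57 genes regulated lower and orange points the 45 regulated higher, and the dotted lines mark a log2FC of 1 and -1. Most points of both colours lie at low levels. A mean log2 CPM of 1 or below was found for 36 of the 45 orange and 35 of the 57 blue points. LAMA3 is a blue point at a high level.

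Several genes of the basement membrane and its receptors fell. Laminin-332 is the heterotrimer through which epithelial cells attach to the basement membrane, and LAMA3 and LAMB3 encode its alpha and beta chains. LAMA3 (ENSG00000053747, chromosome 18 of GRCh38, 23689443 to 23956222) was at 194, 214 and 334 CPM in EGF libraries and at 76.3, 84.3 and 125 in EGF+Cet libraries. Untreated libraries held 49.1, 43.5 and 72.1 CPM. Every EGF+Cet library thus lay below every EGF library, at a log2FC of -1.37 (SE 0.10, adjusted p = 8.94e-11, the smallest of all genes).

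LAMB3, the beta chain, had 62.7, 83.5 and 100 CPM in EGF and 40.7, 49.7 and 65.3 in EGF+Cet libraries. These groups overlapped, and LAMB3 was lower in each of the 3 pairs (log2FC -0.66, SE 0.08, adjusted p = 1.44e-06).

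Of 22 tested genes for laminins and other matrix proteins, 8 fell and 1 rose, and the list's median log2FC was -0.19 beside 0.00 over all genes. Among the others that fell were FBN2 (-0.78), LAMA1, CD44, TGFBI and FN1 (-0.26), and LAMA5, the alpha chain of another laminin, rose (0.35). Of 16 integrin genes, which encode receptors for matrix, 4 fell and 0 rose. ITGA6 and ITGB4 encode the laminin receptor of hemidesmosomes. ITGA6 was at 193, 154 and 223 CPM in EGF and at 121, 92.2 and 140 in EGF+Cet libraries (log2FC -0.69, SE 0.11), and ITGB4 had a log2FC of -0.41. ITGA2, part of a collagen receptor, showed the larger fall, at 141, 125 and 190 against 77.7, 67.5 and 113 CPM (log2FC -0.83, SE 0.15), and ITGB1 the smallest (-0.15). Of 29 collagen genes, 9 fell and 4 rose. COL6A3, a chain of the microfibril-forming collagen VI, went from 53.3, 31.8 and 34.1 CPM in EGF to 24.7, 14.5 and 15.4 in EGF+Cet libraries (log2FC -1.14, SE 0.14). COL4A1 (-1.32) and COL4A2 (-0.79), the basement membrane collagen chains, fell at levels under 3 CPM, as did COL13A1, a transmembrane collagen (-1.27), at levels under 4 CPM, and COL17A1, a hemidesmosome component, had a log2FC of -0.43. The genes COL5A2 (0.46), COL12A1, COL9A2 and COL18A1 rose. The medians of the integrin and the collagen list were -0.04 and -0.02 and turned positive with library size alone as the scaling.

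Keratins and proteins of the cornified envelope were regulated in both directions, though those regulated higher stayed under 1 CPM in EGF and EGF+Cet libraries. KRT6A, a keratin of activated keratinocytes, was at 51.3, 34.9 and 41.2 CPM in EGF, 22.4, 10.3 and 18.1 in EGF+Cet and 11.6, 4.48 and 11.2 in untreated libraries (log2FC -1.39, SE 0.11). PRR9 went from 3.32, 6.81 and 6.26 CPM to 0.899, 1.97 and 2.16 (log2FC -1.73, SE 0.19), without overlap. SPRR1B (-1.70), SPRR3 (-1.37), KRT27 (-1.97) and KRTAP1-5 (-1.25) also fell, at levels near or under 1 CPM. Regulated higher were KRT36, at 0.145, 0.0468 and 0.0193 CPM in EGF and 0.176, 0.299 and 0.428 in EGF+Cet libraries (log2FC 2.08, SE 0.47), and KRT1, which had 0 counts in the EGF libraries. The KRT36 levels of 0.0468 and 0.0193 CPM lay under the level of 3 counts, so its fold is uncertain. Apart from KRT6A, these genes were chosen after their values were seen and were not tested as a group.

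Other genes with the largest falls among those with a mean log2 CPM above 1 have roles in signalling and secretion. ESM1, a secreted proteoglycan, was at 8.28, 8.02 and 4.21 CPM in EGF and at 1.87, 2.33 and 1.29 in EGF+Cet libraries, a log2FC of -1.93 (SE 0.34, adjusted p = 0.000222). Untreated libraries held 0.516, 2.08 and 0.279 CPM, overlapping with those of EGF+Cet. RGS4, which shortens signalling by G proteins, went from 8.17, 7.81 and 8.77 CPM in EGF to 2.45, 2.57 and 2.01 in EGF+Cet libraries (log2FC -1.83, SE 0.24). DCLK1 was at 6.02, 6.31 and 5.72 CPM against 2.36, 2.01 and 2.06 (log2FC -1.48, SE 0.14). For RGS4 and DCLK1 the EGF+Cet libraries lay between the untreated and the EGF libraries, without overlap on either side.

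GHR, the growth hormone receptor, was at 43.4, 44.9 and 49.4 CPM in EGF, 15.9, 17.3 and 21.3 in EGF+Cet and 9.87, 9.20 and 9.02 in untreated libraries (log2FC -1.34, SE 0.10, adjusted p = 9.16e-11). TNFSF8, the ligand of CD30, had 8.92, 11.5 and 8.27 CPM in EGF and 3.07, 4.18 and 4.09 in EGF+Cet libraries (log2FC -1.34, SE 0.12). TMEM200A, a membrane protein, stood at 94.3, 89.4 and 81.3 against 41.1, 33.3 and 38.6 CPM (log2FC -1.24, SE 0.13). Neither gene overlapped between the groups. PTHLH, which encodes parathyroid hormone-related protein, was at 128, 132 and 133 CPM in EGF and at 55.9, 65.9 and 59.7 in EGF+Cet libraries, with 20.7, 22.7 and 34.6 in untreated libraries (log2FC -1.12, SE 0.14). GLIPR1 had a log2FC of -1.23 (SE 0.11).

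**Figure D2:**
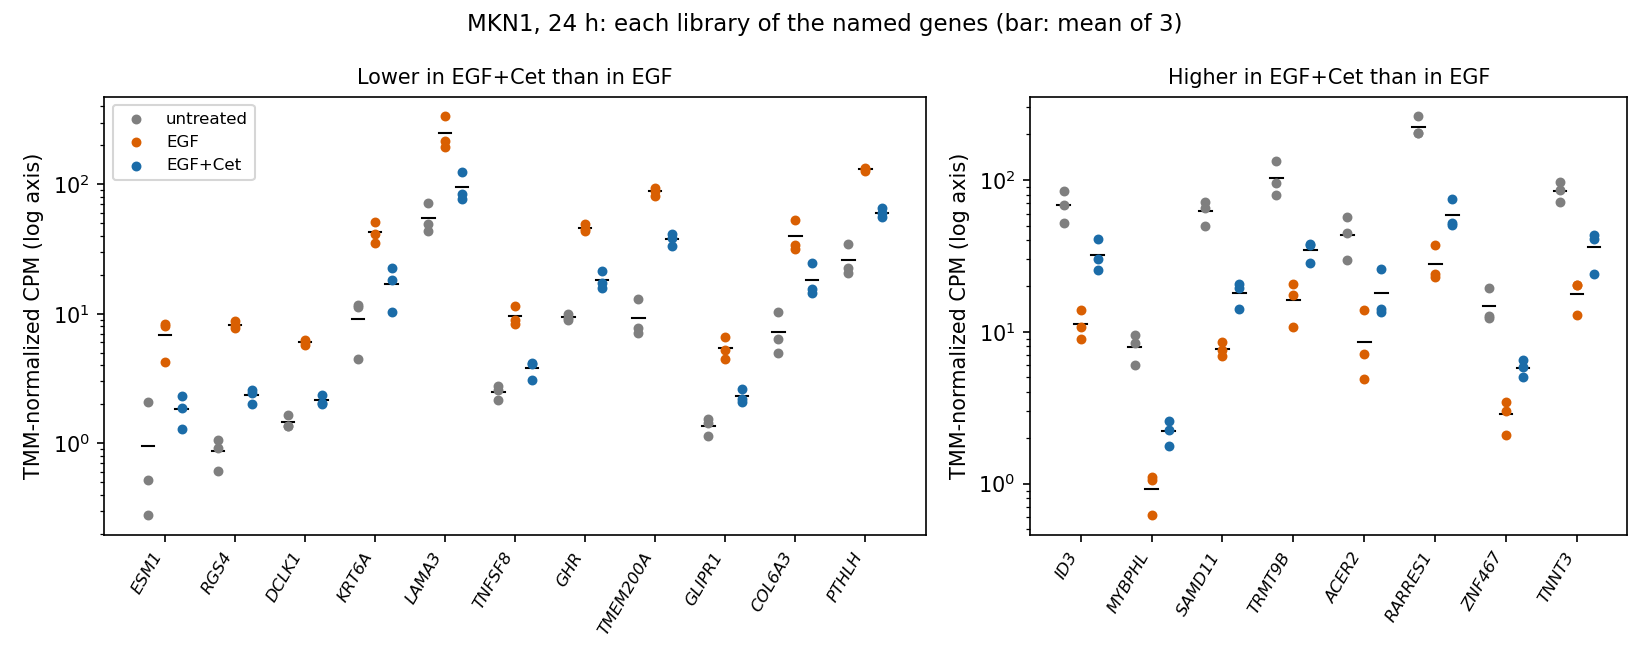
TMM-normalized CPM (log axis) of the 19 genes named by rule in each library of untreated (grey), EGF (orange) and EGF+Cet (blue) MKN1 cells at 24 h, with a bar at the mean of 3 libraries. The left panel holds 11 genes that were lower and the right panel 8 that were higher in EGF+Cet than in EGF cells, and the mean of the EGF+Cet libraries lies between those of the untreated and EGF libraries for each gene.

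Genes for the ligands of EGFR itself were among those that fell. Of 7 tested, 4 fell and 0 rose, with a median log2FC of -0.52. AREG (amphiregulin) was at 24.7, 29.8 and 45.8 CPM in EGF, 13.2, 14.6 and 21.1 in EGF+Cet and 5.80, 6.33 and 17.0 in untreated libraries (log2FC -1.01, SE 0.18, adjusted p = 0.000381). HBEGF went from 43.6, 51.5 and 49.5 to 29.2, 31.4 and 25.3 CPM (log2FC -0.74, SE 0.22) and TGFA from 39.5, 36.1 and 42.5 to 26.4, 24.0 and 32.3 (log2FC -0.52, SE 0.07). EGF and EGF+Cet libraries did not overlap for these genes. EREG (epiregulin) did overlap, at 154, 110 and 203 against 91.2, 67.3 and 115 CPM (log2FC -0.76, SE 0.23, adjusted p = 0.0365). BTC had a log2FC of 0.17 and EPGN one of -0.52 with an SE of 0.60. Among the receptors, EGFR was at 447, 353 and 387 CPM in EGF and 388, 306 and 329 in EGF+Cet libraries (log2FC -0.22, SE 0.08, adjusted p = 0.119). ERBB3, the receptor for neuregulins, rose (0.37, SE 0.11, adjusted p = 0.0293), and ERBB2 had a log2FC of 0.04.

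Of 27 tested interleukin and growth factor genes, 9 fell and 0 rose, with a median of -0.29. Beside ESM1 and PTHLH, they were IL1B (-1.36) and CSF2 (-1.32), both at low levels, STC1, IL11, VEGFC, LIF and TGFB1 (-0.31). IL11, a cytokine of the IL-6 family, went from 23.3, 26.7 and 24.4 to 13, 13.6 and 13.9 CPM (log2FC -0.88, SE 0.13). Of 11 chemokine genes, 3 fell (CXCL5 -1.29, CXCL8 -0.95 and CCL2 -0.67) and 0 rose.

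Genes that feed back on ERK fell in part. Of 11 tested DUSP genes, which encode phosphatases of MAP kinases and relatives, 3 fell and 1 rose, and the median was -0.17. DUSP6, the phosphatase most specific for ERK, was at 71.1, 69.7 and 90.7 CPM in EGF and at 36.3, 36.2 and 38.1 in EGF+Cet libraries, a log2FC of -1.03 (SE 0.25, adjusted p = 0.00691). DUSP5 (-0.77) and DUSP4 (-0.62) also fell, and DUSP8, whose product acts on JNK and p38, rose (0.44). Of 7 Sprouty and SPRED genes, 1 fell. This was SPRY4, from 103, 92.0 and 112 to 54.1, 46.5 and 49.6 CPM (log2FC -1.01, SE 0.25), while SPRY2 had a log2FC of -0.33 (adjusted p = 0.0756).

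Of 23 immediate early transcription factors tested, 10 fell and 1 rose, with a median of -0.27. FOSL1, a partner of JUN in AP-1, was at 325, 350 and 285 CPM in EGF and at 197, 176 and 166 in EGF+Cet libraries (log2FC -0.83, SE 0.24, adjusted p = 0.0296). JUN went from 80.1, 84.2 and 79.4 to 55.6, 58.8 and 46.1 CPM (log2FC -0.61, SE 0.14), and MYC, which drives growth, from 53.4, 55.7 and 50.7 to 33.3, 35.7 and 30.5 (log2FC -0.68, SE 0.15). In each of these genes the groups were apart. JUND rose (0.31). FOS itself was at 16.1, 20.5 and 18.6 CPM in EGF and 16.8, 20.1 and 14.9 in EGF+Cet libraries (log2FC -0.09, SE 0.12, adjusted p = 0.71). EGR1 had a log2FC of -0.71 with an SE of 0.27 (adjusted p = 0.101), and EGR3, at 3.84, 2.83 and 6.22 CPM in EGF libraries, fell (-1.08).

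Of 20 tested genes for proteases of the matrix and their inhibitors, 7 fell and 0 rose, and the median was -0.19. PLAUR, the receptor of urokinase, was at 50.3, 58.0 and 40.2 CPM in EGF and at 30.0, 35.2 and 25.2 in EGF+Cet libraries (log2FC -0.71, SE 0.09). SERPINB2 had a log2FC of -2.02 (SE 0.24) at 1.20, 1.66 and 1.18 against 0.247, 0.319 and 0.428 CPM. MMP9 (-1.38) and MMP3 (-1.82) were at low levels, the latter with an SE of 0.55. The groups did not overlap for PLAUR and SERPINB2.

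The study lists 14 motility genes, chosen among those regulated in MKN1 cells after 4 h of afatinib, alone and with trastuzumab. They thus come from the same line under another drug and time, without added EGF. The list is not independent evidence of a direction. Of these, 9 fell and 1 rose, with a median log2FC of -0.61. Those that fell included F2RL1, a protease-activated receptor (-0.67), ETS1 (-0.63), CYR61 (-0.47) and F3, which encodes tissue factor (-0.46), beside CXCL8, ITGA2, HBEGF and PLPP3. SEMA6D rose (0.86). Of 15 mesenchymal genes, 6 fell and 0 rose (median -0.17). VIM, encoding vimentin, was at 984, 1263 and 846 CPM in EGF and at 684, 715 and 572 in EGF+Cet libraries (log2FC -0.64, SE 0.10), and CDH11 (-0.96) and SNAI2 (-0.54) fell as well. Of 27 epithelial junction genes, 1 fell (3.70%) and 3 rose (11.1%), beside 3.66% and 3.55% of all genes.

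Genes of the ID family were among those that rose. ID3, an inhibitor of basic helix-loop-helix factors and a target of BMP signalling, was at 10.7, 13.9 and 8.95 CPM in EGF, 30.0, 40.9 and 25.4 in EGF+Cet and 68.1, 85.0 and 52.0 in untreated libraries. The 3 groups did not overlap, and the log2FC of EGF+Cet against EGF was 1.52 (SE 0.14, adjusted p = 3.37e-09). Of 12 tested ID and BMP feedback genes, 6 rose and 2 fell, with a median of 0.23. ID2 went from 11.2, 18.1 and 13.3 to 20.3, 33.0 and 22.4 CPM (log2FC 0.83, SE 0.12) and ID1 from 173, 216 and 190 to 237, 310 and 258 (log2FC 0.48, SE 0.12). The inhibitory SMAD genes SMAD6 (0.68) and SMAD7 (0.17) rose, as did BAMBI (0.29), which encodes a pseudoreceptor. The 2 that fell encode secreted BMP antagonists. NOG (noggin) was at 18.7, 25.2 and 22.9 CPM in EGF and at 9.47, 11.3 and 11.1 in EGF+Cet libraries (log2FC -1.06, SE 0.14), and GREM1 (gremlin) at 67.4, 58.1 and 48.8 against 43.7, 37.4 and 33.4 (log2FC -0.60, SE 0.06).

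RARRES1, a gene induced by retinoids, was at 22.8, 24.0 and 37.0 CPM in EGF, 51.7, 50.4 and 74.6 in EGF+Cet and 261, 204 and 202 in untreated libraries (log2FC 1.08, SE 0.13). SAMD11 had 7.55, 6.92 and 8.56 CPM in EGF and 14.2, 20.7 and 19.3 in EGF+Cet libraries (log2FC 1.23, SE 0.15). TRMT9B went from 17.4, 10.7 and 20.6 to 37.0, 28.2 and 37.6 CPM (log2FC 1.09, SE 0.12). In these 3 genes the EGF+Cet libraries stood above all EGF libraries and below all untreated libraries. MYBPHL (1.25), ZNF467, a zinc finger protein (1.02), and TNNT3, a troponin (1.01), rose without overlap. ACER2, a ceramidase of the Golgi, rose (1.08) with overlap, at 7.10, 4.89 and 13.8 against 14.2, 13.6 and 25.8 CPM.

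Lists for the cell cycle held few changes. Of 42 S phase genes 0 and of 53 G2/M genes 1 passed the test, the latter being HMGB2 (0.24). Their medians were -0.02 and -0.01, and 0.06 and 0.07 with library size alone as the scaling. In the comparison of EGF with untreated cells, 24 of the 42 S phase genes were higher and 1 lower by adjusted p, where 24.7% of all genes were higher and 26.4% lower. Of 23 ribosome biogenesis genes, 4 fell (PES1, RRP12, BOP1 and WDR12, between -0.28 and -0.23) and 0 rose, with a median of -0.16. In the comparison of EGF with untreated cells, all 23 were higher by adjusted p and 0 lower, with a median log2FC of 0.68.

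**Figure D3:**
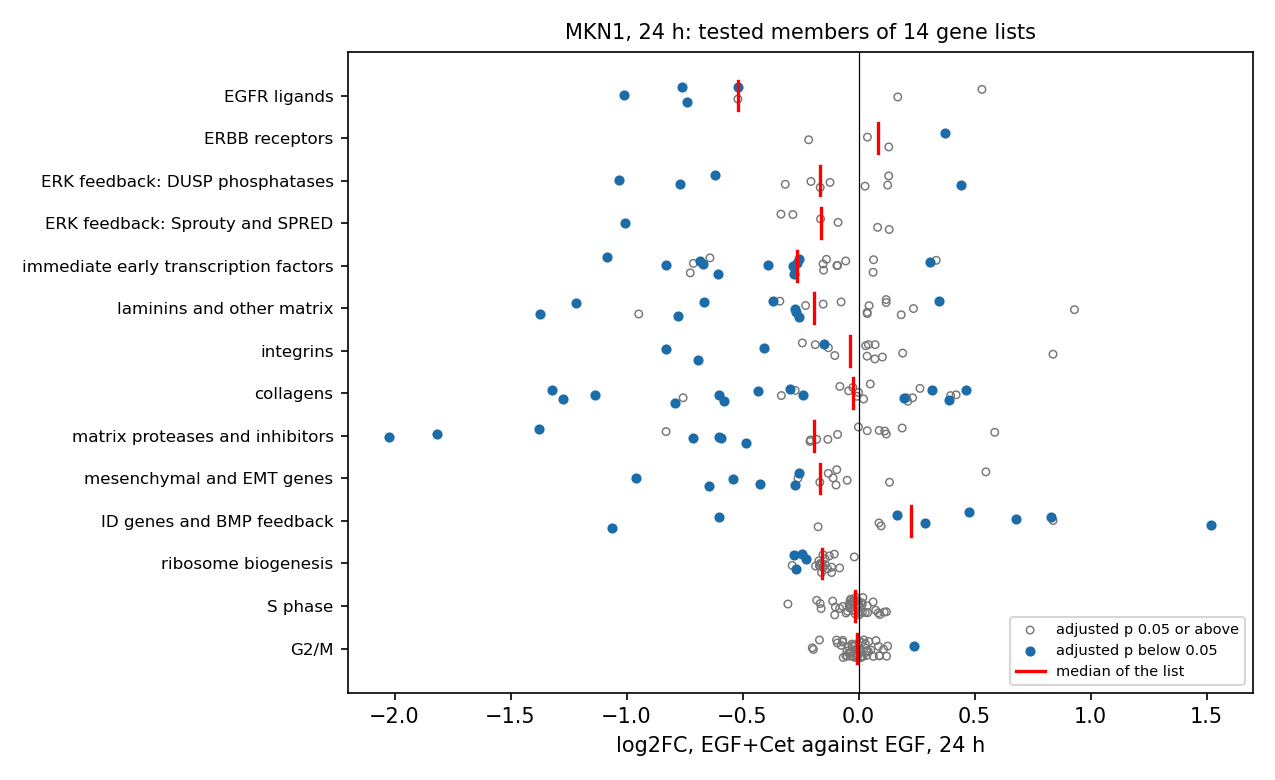
Log2FC of EGF+Cet against EGF at 24 h (horizontal axis) for each tested member of 14 gene lists. Filled points have an adjusted p below 0.05, open points do not, and the red bar is the median of the list, which is -0.52 for the EGFR ligands, 0.23 for the ID and BMP feedback genes and -0.02 for the S phase genes.

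Relative to untreated cells, EGF alone regulated 1856 genes at 24 h (9.37%), 451 higher (2.28%) and 1405 lower (7.09%). The same 3 EGF libraries stand in this comparison and in that of EGF+Cet with EGF, so chance variation among them acts on both with opposite signs, and the following counts are a description. Of the 57 genes regulated lower by cetuximab, 53 were among those that EGF raised, and of the 45 regulated higher, 39 were among those it lowered. Of the 451 raised genes, 241 fell with cetuximab, 53 of them past the limit on log2FC, and 0 rose. Of the 1405 lowered genes, 236 rose, 39 past the limit, and 0 fell.

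The response to EGF remained in part. Compared with untreated cells, EGF+Cet cells still differed by adjusted p in 337 of the 451 raised and 1015 of the 1405 lowered genes, in the direction of EGF. In this comparison 18.2% of all genes were higher and 18.2% lower by adjusted p. The share of the log2FC of EGF that was taken back had a median of 40.4% for raised genes (quartiles 29.2% and 52.2%) and 33.0% for lowered genes (19.1% and 47.2%). It was 63.4% for LAMA3, 58.5% for GHR, 58.3% for ID3, 56.3% for DUSP6, 54.0% for AREG and 35.6% for RARRES1. These genes were picked among those regulated by cetuximab in EGF-treated cells, and that log2FC is also the numerator of the share. Their shares thus lean upward by the choice and do not stand for all named genes. EGR1 and EGR3 lay outside this pattern. For EGR1, EGF libraries at 127, 97.1 and 162 CPM were each below the same-numbered untreated library (232, 113 and 282). Its EGF+Cet libraries at 69.4, 68.8 and 95.2 CPM were below all of these (log2FC of EGF+Cet against untreated -1.38, adjusted p = 0.00013). For EGR3 the log2FC against untreated was -0.35 for EGF and -1.44 for EGF+Cet, and the EGF+Cet libraries were below all untreated ones.

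To define responses to EGF without these libraries, genes regulated by EGF at 4 h were taken from other libraries. Of 306 genes raised at 4 h (1.54% of the genes tested), 141 fell with cetuximab at 24 h (46.1% against 3.66% of all genes) and 0 rose. Among them 44 passed the limit on log2FC (14.4% against 0.288%). Of 86 genes lowered at 4 h (0.434%), 15 rose at 24 h (17.4% against 3.55%) and 0 fell, and 2 passed the limit. The median log2FC of EGF+Cet against EGF at 24 h was -0.57 over the raised genes, with quartiles of -0.91 and -0.28. Over the lowered genes it was 0.33, with quartiles of 0.07 and 0.62, and over all genes 0.00.

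**Figure D4:**
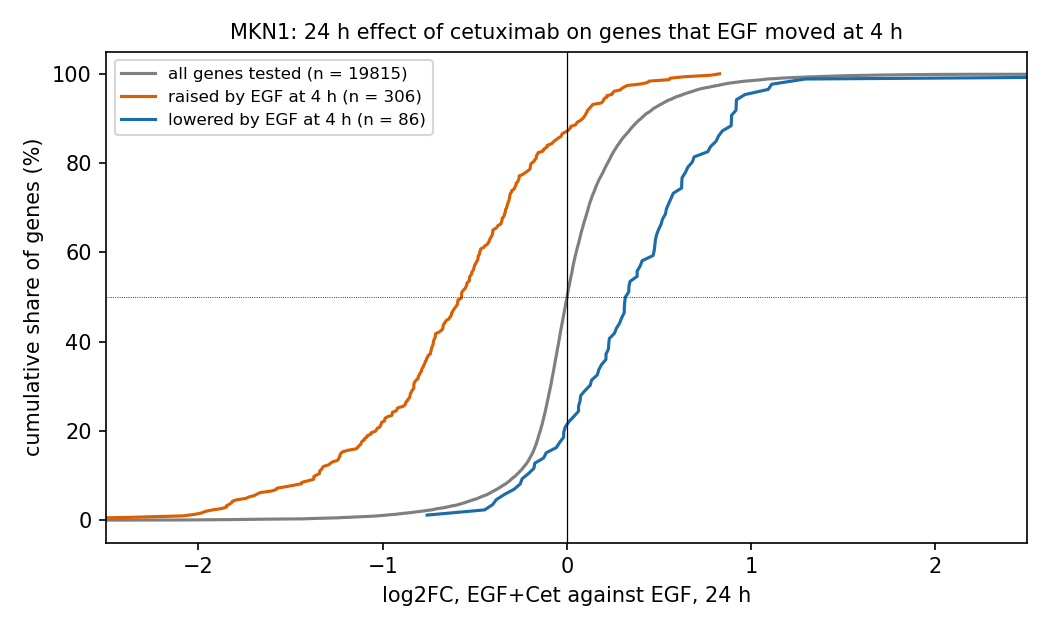
Cumulative share of genes (vertical axis, %) against the log2FC of EGF+Cet against EGF at 24 h (horizontal axis, shown from -2.5 to 2.5) for 306 genes that EGF raised at 4 h, 86 genes that it lowered at 4 h and all 19815 genes tested. The curve of the raised genes lies to the left of that of all genes, with a median of -0.57, and that of the lowered genes to the right, with a median of 0.33.

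After 4 h, the same treatments differed in 65 genes, 56 of them lower (0.283%) and 9 higher (0.0454%) in EGF+Cet cells. Regulated lower at both time points were 15 genes, and 35 of the 57 genes regulated lower at 24 h had an adjusted p below 0.05 in the same direction at 4 h, as did 2.97% of all genes. For LAMA3 the log2FC was -1.09 at 4 h, for RGS4 -1.31, for ESM1 -1.40 and for AREG -0.92. Of the 45 genes regulated higher at 24 h, 2 were higher at 4 h by adjusted p, beside 1.02% of all genes. The difference between the effects at 24 h and 4 h was tested with an interaction term, and 11 genes passed the rule (0.0555%), all with the more positive effect at 24 h. Among these were ID3, with a log2FC of 0.41 at 4 h and a difference of 1.11 (SE 0.20, adjusted p = 0.00447), SAMD11 (0.12 at 4 h, difference 1.10) and SLCO2B1, an organic anion transporter (difference 1.30). NRARP, a Notch feedback gene, had a log2FC of -1.21 at 4 h and -0.11 at 24 h (difference 1.10, adjusted p = 5e-05). Of these 11 genes, 0 remained by the rule without the replicate block or without the libraries of replicate 1.

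Cetuximab was also given without EGF, and its effect with EGF was compared with that without EGF by an interaction term. The effects differed for 154 genes (0.777%), 111 with the lower and 43 with the higher log2FC in the presence of EGF, and 21 of them were among the 102 regulated genes. The log2FC of EGF+Cet against EGF is a part of both, so this overlap is a description. LAMA3 had 47.7, 47.3 and 54.3 CPM in Cet libraries, within the range of untreated ones, and a log2FC of -0.11 for Cet against untreated (difference between the effects -1.27, SE 0.14, adjusted p = 5.45e-07). GHR had a log2FC of 0.26 without EGF (difference -1.60) and TNFSF8 0.49 (difference -1.84). Each of these genes fell with cetuximab in EGF-treated cells.

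For 3 of the 18 tested DUSP, Sprouty and SPRED genes (DUSP6, DUSP4 and SPRY4) the log2FC was the higher one in the presence of EGF. DUSP6 was at 2.87, 2.71 and 4.48 CPM in Cet and at 15.5, 14.5 and 41.2 in untreated libraries, a log2FC of -2.74, against -1.03 with EGF (difference 1.70, SE 0.40, adjusted p = 0.0058). EGR1 was at 21.7, 20.1 and 33.4 CPM in Cet libraries, a log2FC of -3.04 (difference 2.32, SE 0.38, adjusted p = 0.00016). The log2FC without EGF was also the lower one for SPRY4 (-2.56, difference 1.56), EGR3 (-3.23, difference 2.15), FOSL1 (-2.21, difference 1.38) and AREG (-2.38, difference 1.37). Cet libraries of these genes lay below all untreated and EGF+Cet libraries. Deviations of the Cet libraries followed those of the same-numbered EGF libraries weakly in replicates 1 and 3 and ran against them in replicate 2. Pearson's r across genes was 0.21, -0.33 and 0.36, beside 0.67, 0.68 and 0.74 for EGF+Cet libraries. Without the block, the differences passed the rule for 16 genes, among them GHR, TNFSF8 and EGR1. They did not for LAMA3 (adjusted p = 0.137), DUSP6 (0.189), SPRY4 (0.164) and AREG (0.467).

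**Figure D5:**
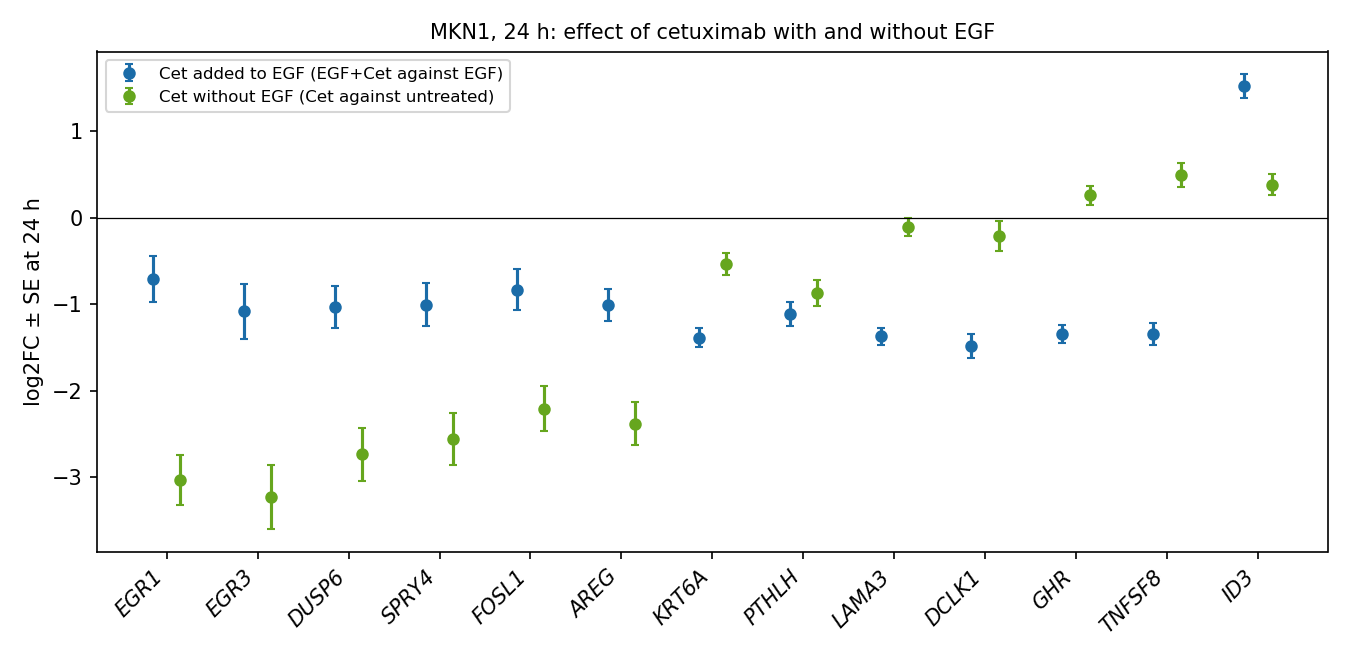
Log2FC with its standard error at 24 h (vertical axis) for 13 genes, for cetuximab added to EGF (blue, EGF+Cet against EGF) and for cetuximab without EGF (green, Cet against untreated), each from 3 libraries per group. For EGR1, EGR3, DUSP6, SPRY4, FOSL1 and AREG the green point is the lower one, and for LAMA3, DCLK1, GHR and TNFSF8 it lies close to or above 0.

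In Hs746T, another gastric cancer line of the study, the same comparison at 24 h listed 0 regulated genes of 18667 tested (0%) in edgeR's test and 0 with DESeq2. At an unadjusted p below 0.05 it listed 635 genes, and 1 gene had an adjusted p below 0.05, FBXO32 with a log2FC of 0.36. EGF itself regulated 0 genes in these cells at 24 h, and by adjusted p alone 7 genes were lower and 0 higher than in untreated cells. Of the 102 genes regulated in MKN1 cells, 71 were tested in Hs746T cells. An interaction term between the lines passed the rule for 66 of 21267 genes (0.31%), 35 of them among the 102. This overlap is likewise a description, since the MKN1 comparison is a part of both. On a scale shared by both lines, EGFR was at 270 to 307 CPM in Hs746T libraries of untreated, EGF and EGF+Cet cells. LAMA3 stood at 62.7, 60.5 and 64.4 CPM in EGF and at 69.6, 64.1 and 63.6 in EGF+Cet libraries of Hs746T cells (log2FC 0.07, SE 0.10), and the difference between the lines was -1.45 (SE 0.14, adjusted p = 2.58e-10). ESM1, at 314 to 335 CPM in Hs746T and at 4.23 to 8.40 in MKN1 EGF libraries, had a log2FC of -0.10 in Hs746T cells (difference -1.84). For ID3 the difference was 1.43 (adjusted p = 2.05e-06). Without the replicate block, 3 genes passed this interaction, namely RGS4, GHR and DCLK1, while the adjusted p was 0.0846 for LAMA3, 0.348 for ID3 and 0.76 for ESM1.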

How the data were processed

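The authors purified mRNA, made directional libraries and sequenced them paired end. The submitters' processing notes name Trim Galore, STAR and hg38, while versions, the counting program and the annotation are not given in the sources used here. The files deposited by the authors hold raw counts on Ensembl identifiers, 1 file per library. Of 65217 identifiers, 8404 are not in GENCODE 29, and these held 0.037% of the counts. The 37 mitochondrial identifiers had 0 counts. Of 132 libraries 84 were read, those of MKN1 and Hs746T.

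For the tests, edgeR 4.0.16 was run in R 4.3.3 (filterByExpr at min.count 10 and min.total.count 15, TMM, glmQLFit and glmQLFTest, Benjamini-Hochberg adjustment). All 42 MKN1 libraries (14 groups) were fitted together, with the replicate number within each time point as a block, leaving 24 residual degrees of freedom. The pairing comes from the replicate numbers in the labels. Deviations from the group mean of same-numbered EGF and EGF+Cet libraries correlated across 12580 genes with Pearson's r of 0.67, 0.68 and 0.74. Of 15 pairs of libraries 0 were identical, and the squared differences were at least 13.2 times the Poisson expectation. The libraries are described as biological triplicates, without further detail on cultures. For MKN1 cells the p-values measure the spread that remains after the replicate block, estimated over all 42 libraries. The standard error is the absolute log2FC divided by the square root of F. The limits on adjusted p (0.05) and absolute log2FC (1) follow the study.

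Named by rule were up to 12 falls and 12 rises: regulated genes that are protein coding, with mean log2 CPM above 1 and the same direction in all 3 pairs, ranked by log2FC (8 rises met it). Some genes are not reported here. Also named were regulated members of the lists, members of the EGFR ligand, ERBB, ERK feedback and immediate early lists, and the study's motility genes. Other list members that passed the test are named to describe a list and were chosen after their values were seen. The members and the 46 gene lists were chosen with earlier results of these data known. Alternatives were DESeq2 1.42.0, other scaling, filters and sets of libraries, no block, no limit on log2FC and leaving out replicates. The procedure was tested on simulated data. Promoter sequences are from RefSeq (GRCh38.p14).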

Additional observations from a re-analysis of the deposited data

Results flagged for a closer look

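Effects of cetuximab that differed between conditions were tested with interaction terms in edgeR, and each value below is a difference of log2FC past the same limits. The named genes were chosen by their log2FC of EGF+Cet against EGF at 24 h in MKN1 cells. That log2FC is also a part of each interaction, so the differences lean in the direction of the choice and are not independent of it. Groups of 3 libraries were not tested for single libraries that stand apart. Between 24 h and 4 h, the effect in EGF-treated MKN1 cells differed by 1.10 for SAMD11 (adjusted p = 0.00803) and by 1.11 for ID3 (adjusted p = 0.00447). Without the replicate block the adjusted p was 0.441 for SAMD11 and 0.421 for ID3, and without replicate 1 it was 0.177 and 0.53. Without replicate 2 it was 0.276 for SAMD11.

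Between cells with and without EGF at 24 h, the effect was more positive with EGF for ID3, by 1.14. It was more negative with EGF for 5 named genes. The difference was -1.60 for GHR, -1.84 for TNFSF8, -1.21 for GLIPR1, -1.27 for DCLK1 and -1.27 for LAMA3. The adjusted p was at most 0.000344, which was that of DCLK1. Without the replicate block GHR and TNFSF8 passed, while the adjusted p was 0.057 for ID3, 0.25 for GLIPR1, 0.107 for DCLK1 and 0.137 for LAMA3.

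Between MKN1 and Hs746T cells at 24 h, the effect was more positive in MKN1 cells for SAMD11 (1.33), ID3 (1.43), TRMT9B (1.40) and ACER2 (1.17). It was more negative in MKN1 cells for RGS4 (-1.71), GHR (-1.37), ESM1 (-1.84) and TNFSF8 (-1.37). The same held for PTHLH (-1.21), GLIPR1 (-1.25), DCLK1 (-1.72) and LAMA3 (-1.45). The adjusted p was at most 0.00274, which was that of TRMT9B. Without the replicate block, RGS4, GHR and DCLK1 passed and the other 9 did not, with an adjusted p of 0.0846 for SAMD11, TNFSF8 and LAMA3, 0.348 for ID3, 0.371 for GLIPR1, 0.533 for TRMT9B, 0.76 for ESM1 and 1.00 for ACER2 and PTHLH. Without replicate 1, SAMD11 (adjusted p = 0.0517), TRMT9B (0.139) and ACER2 (0.0572) did not pass, and without replicate 2, SAMD11 (0.138) and ACER2 (0.202).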

How the results depend on the processing

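Without the replicate block, which pairs the same-numbered libraries, 24 genes were lower and 7 higher in EGF+Cet than in EGF cells, in place of 57 and 45. Of the genes raised by EGF at 4 h, 21 were then regulated lower in place of 44, and of those lowered at 4 h, 1 was higher in place of 2. The interactions then listed 0 genes for time (11 with the block), 16 for the presence of EGF (154) and 3 for the cell line (66). A minimum of 10 counts in every library left 26 lower and 18 higher genes, 23 and 1 for the 4 h genes, 953 genes for EGF (in place of 1856) and 30 for the cell line. DESeq2 gave 25 higher genes, 1 of the genes lowered at 4 h and 19 for time. Library size alone gave 4 of the genes lowered at 4 h. No filter gave 1 of these, 17 for time and 4 in Hs746T cells (in place of 0). Fitting the compared groups only gave 21 higher genes, 19 for time and 55 for the presence of EGF. The 24 h libraries only gave 20 higher genes and 86 for the presence of EGF. By adjusted p alone the counts were 726 lower, 704 higher, 141, 15, 10122, 79, 1485, 1 and 437, in the same order of comparisons, with Hs746T before the cell line.

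Leaving out each replicate in turn gave 38 to 52 lower and 17 to 44 higher genes, the fewest higher genes without replicate 2. The genes raised by EGF at 4 h gave 31 to 38 and those lowered 0 to 2, with 0 without replicate 2. EGF regulated 1325 to 2207 genes. The interaction with time listed 0 to 9 genes, 0 without replicate 1 and 3 without replicate 2. The interaction with EGF listed 74 to 122, with 74 without replicate 3. Hs746T cells gave 0 to 1, with 1 without replicate 1, and the cell line 27 to 53, with 39 without replicate 1 and 27 without replicate 2. The causes of these shifts were not tested. Of the 19 genes named by rule, 19 kept an adjusted p below 0.05 with DESeq2, library size alone, either filter, either smaller set of libraries and without replicate 1 or 3, and 18 without replicate 2, where MYBPHL did not pass. Of 162 genes of the lists and the rule that passed the test, 0 changed direction under the alternatives in which they were tested (153 of them with at least 10 counts in every library), and 138 no longer passed without the block. Low counts limit the 71 regulated genes at a mean log2 CPM of 1 or below.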
